A study of Mus musculus with 20 samples.

Results

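The genes described here are the mouse mitochondrial import and CHCH-domain genes, chosen by symbol. They are all annotated genes named Timm, Tomm or Chchd with a suffix, together with Pam16, Dnajc19, Grpel1, Grpel2, Hspd1, Hspe1, Immp1l and Immp2l. The rule found 43 genes among the 34937 in the count tables, and 41 of them passed the filter on low counts, as did 11754 genes in all. Tomm40l and Immp2l were counted too rarely to be tested. The gene set was put forward with the difference between Ehmt2Mat and Ehmt2Cntr embryos already known, so member values and calls in that comparison are given as a description and no p is printed for them. A member is called there where the edgeR fit over all genes passes its threshold.

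Single embryos at the 8-cell stage (E2.5) were sequenced on a mixed background. Ehmt2Cntr embryos came from Ehmt2F/+ Zp3-Cre females and Ehmt2Mat embryos from Ehmt2F/- Zp3-Cre females. Ehmt2 encodes G9a, a histone H3 lysine methyltransferase, and Zp3-Cre recombines the floxed allele in growing oocytes, so that Ehmt2Mat embryos are designed to lack the maternal supply. Counts of 9 Ehmt2Cntr embryos (6 zygotic +/+ and 3 zygotic +/-) and 10 Ehmt2Mat embryos (5 zygotic +/- and 5 zygotic -/-) were used. Both groups had mothers carrying Zp3-Cre, and the maternal groups did not have the same mix of zygotic genotypes. Only embryos of normal morphology were taken, and no label ties embryos to a mother or litter, so that the spread below is that between embryos.

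Most mitochondrial proteins are made in the cytosol and pass through the TOM complex of the outer membrane. From there, TIM23 and its motor take proteins with a presequence into the matrix, TIM22 inserts carriers into the inner membrane, and small TIM chaperones escort hydrophobic proteins between the membranes. CHCH-domain proteins carry paired cysteine motifs that are oxidised by a disulfide relay in the intermembrane space. The oocyte hands its mitochondria to the embryo, which relies on them through cleavage.

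For 4 of the 5 members called between the groups, the RefSeq promoter table (GRCm38.p6) holds the 250 bases before the start, and these are shown because the members called are those on which the account turns. Tomm7 is named only. Capitals mark motifs found by letter search on both strands. In the Tomm20 window they are an E-box (CACGTG) and a relaxed NRF1 core, in which the middle pair of bases is left free, and in the Tomm34 window an ETS core (CCGGAAG, here on the reverse strand). The Chchd10 and Timm13 windows held none of the 6 motifs searched. RefSeq places the start of Chchd10 upstream of the gene start in the count tables. The window ends at base 75933129 and the counted gene starts at 75935573, so the bases just before the counted start were not searched. For Tomm34, RefSeq lists 2 windows, of which the first is printed.
Chchd10, chr10:75932880-75933129, plus strand: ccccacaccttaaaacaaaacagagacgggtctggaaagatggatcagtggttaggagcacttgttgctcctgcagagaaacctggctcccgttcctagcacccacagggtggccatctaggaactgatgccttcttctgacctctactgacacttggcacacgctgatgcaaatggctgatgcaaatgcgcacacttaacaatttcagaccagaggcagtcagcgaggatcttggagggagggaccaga
Timm13, chr10:80900970-80901219, minus strand: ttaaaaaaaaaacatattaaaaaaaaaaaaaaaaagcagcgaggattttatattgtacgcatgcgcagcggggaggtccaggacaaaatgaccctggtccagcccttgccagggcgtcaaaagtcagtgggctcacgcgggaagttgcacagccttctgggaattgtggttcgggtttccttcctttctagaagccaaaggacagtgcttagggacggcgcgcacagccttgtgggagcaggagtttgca
Tomm20, chr8:126945922-126946171, minus strand: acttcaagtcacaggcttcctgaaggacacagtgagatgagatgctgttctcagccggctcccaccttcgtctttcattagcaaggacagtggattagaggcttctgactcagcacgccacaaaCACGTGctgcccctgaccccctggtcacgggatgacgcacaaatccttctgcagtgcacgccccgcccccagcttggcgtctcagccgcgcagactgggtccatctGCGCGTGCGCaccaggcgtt
Tomm34, chr2:164071170-164071419, minus strand: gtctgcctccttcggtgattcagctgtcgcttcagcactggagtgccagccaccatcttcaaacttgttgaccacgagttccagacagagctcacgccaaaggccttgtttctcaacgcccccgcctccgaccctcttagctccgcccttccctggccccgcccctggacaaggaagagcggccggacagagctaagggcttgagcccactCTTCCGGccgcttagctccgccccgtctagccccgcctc

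Across the members the windows were richer in ETS cores than those of genes at large. Of 37 members with an entry, 14 held CCGGAAG (37.8%, against 7.83% of 27025 genes), among them Tomm22, Tomm70a, Tomm34, Timm10, Timm23, Hspd1 and Hspe1. Hspd1 has 2 listed windows, and the first held no CCGGAAG, so that the match counted lies in the other. The 27025 genes were not limited to those tested. CACGTG was found for 6 members (16.2% against 6.86%) and the relaxed NRF1 core for 5 (13.5% against 5.64%), namely Chchd4, Hspd1, Hspe1, Pam16 and Tomm20. The strict NRF1 core was found for 0 members (0.877% of all genes), the YY1 motif AAGATGGCG for 1 (2.70% against 0.710%) and CCAAT for 13 (35.1% against 37.5%). The motifs were chosen after the values had been seen, and any match of the strict NRF1 core is also a match of the relaxed one. The windows had a median GC content of 57.6% and a median of 15 CpG sites, against 52% and 6 over all genes. These are matches of letters and were not tested.

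The count tables held 8231646 to 30602434 reads assigned per embryo. A floor of 3 counts corresponded to 0.0911 to 0.363 CPM, read counts per library size scaled by the TMM method, which is the unit of all levels below. Reads from the mitochondrial genome made up 12.6% ± 4.8 (SD, n = 9) of counts in Ehmt2Cntr and 13.5% ± 4.9 (SD, n = 10) in Ehmt2Mat embryos. Genes with a count numbered 12068 to 16142 and 12754 to 16412. Control embryo 10 stood apart with 16142, where the other 8 controls had at most 13230. The same 5 members were called with control embryos 8 and 10 left out. All 7 early embryo markers were tested, with a summed level of 2191 to 3543 CPM in Ehmt2Cntr and 3139 to 4147 CPM in Ehmt2Mat embryos. Of 8 cumulus or granulosa markers, 5 had a count in each group and 2 were tested, while Has2, Ptx3 and Foxl2 were at 0 in every embryo. The summed level of the 8 was 23.3 to 110 CPM (mean 55.5) in Ehmt2Cntr and 43.9 to 167 CPM (mean 86.9) in Ehmt2Mat embryos. Sperm markers reached at most 0.769 and 1.23 CPM, and the 6 oocyte markers summed to 34.5 to 249 and 96.8 to 324 CPM. The part of these differences in the results below was not tested. Ehmt2 itself stood at 141 ± 59.7 CPM (SD, n = 9) and 102 ± 32.7 CPM (SD, n = 10), but counts over the whole gene cannot check the deleted exons.

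The members had a short exon length per gene and a high level for that length. The tested members had a median exon length of 1786 bases against 3677 over all genes tested. Their median level per length in Ehmt2Cntr embryos was 42.5 CPM per kilobase of exon against 6.05 CPM per kilobase. They also varied less between control embryos, with a median coefficient of variation of 39.5% against 58.6%. The genes compared were not matched on level, and the part of level in this difference was not tested. On the scale per length, Tomm22 stood highest at 491 CPM per kilobase, followed by Tomm5 (257), Tomm70a (141), Timm13 (116) and Chchd2 (102). Chchd7 was lowest among those tested (0.776). The amplification has a 3' bias, so that reads need not rise with exon length and division by it can favour short genes. Timm17a, with 7893 exon bases, had the highest mean in Ehmt2Cntr at 705 CPM but 89.3 CPM per kilobase. The part of exon length in the levels per length was not tested. The 3 members with the most counts, Timm17a, Tomm22 and Tomm70a, made up 36.4% of the summed member CPM in Ehmt2Cntr, and the first 10 made up 71.1%. The summed level was 4909 ± 646 CPM (SD, n = 9) in Ehmt2Cntr and 4448 ± 801 CPM (SD, n = 10) in Ehmt2Mat embryos, and the groups overlapped. Each library is a whole embryo, so that a gene expressed in fewer cells and a gene with less RNA per cell cannot be told apart.

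**Figure D1:**
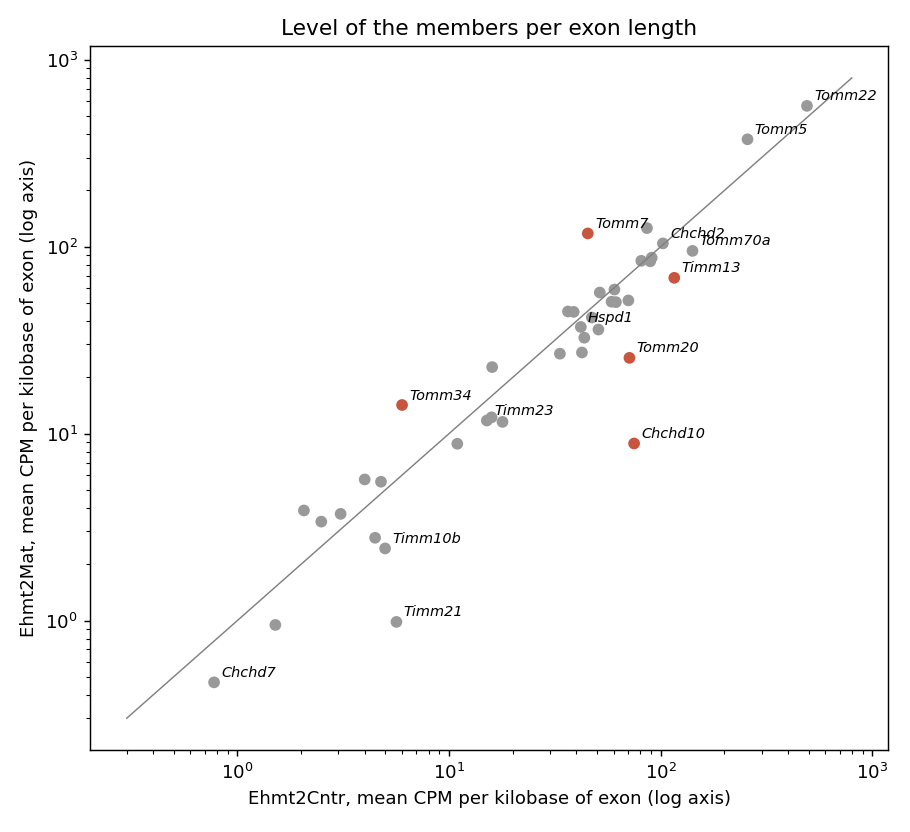
Mean level of each member per exon length, in CPM per kilobase on log axes, in Ehmt2Cntr (x) and Ehmt2Mat embryos (y), with a point for each of the 41 tested members and the line of equal levels. The 5 called members are coloured, and Chchd10 and Tomm20 lie farthest below the line among them, while Tomm7 and Tomm34 lie above it.

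Between the maternal groups, 3 members were lower in Ehmt2Mat embryos (Chchd10, Tomm20 and Timm13) and 2 were higher (Tomm7 and Tomm34), by edgeR's quasi-likelihood test at an adjusted p under 0.05. That is 12.2% of the 41 tested members, where 9.35% of all genes tested were called, 7.32% lower against 4.98% and 4.88% higher against 4.37%. Because the set was chosen on this comparison, nothing is read from these shares. The median log2 fold change of the tested members was -0.18 against -0.04 over all genes, and 25 of 41 members lay below 0 (61.0% against 52.4%). No member had groups that did not overlap in CPM (0.34% of all genes lay wholly higher and 0.179% wholly lower, 0.519% in either direction). In zygotic +/- embryos alone, 3 Ehmt2Cntr against 5 Ehmt2Mat, none of the 5 was called, with 1 gene called of 13401 tested. The log2 fold changes there were -2.72 for Chchd10, -1.44 for Tomm20, -1.03 for Timm13, 0.77 for Tomm34 and 0.86 for Tomm7.

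**Figure D2:**
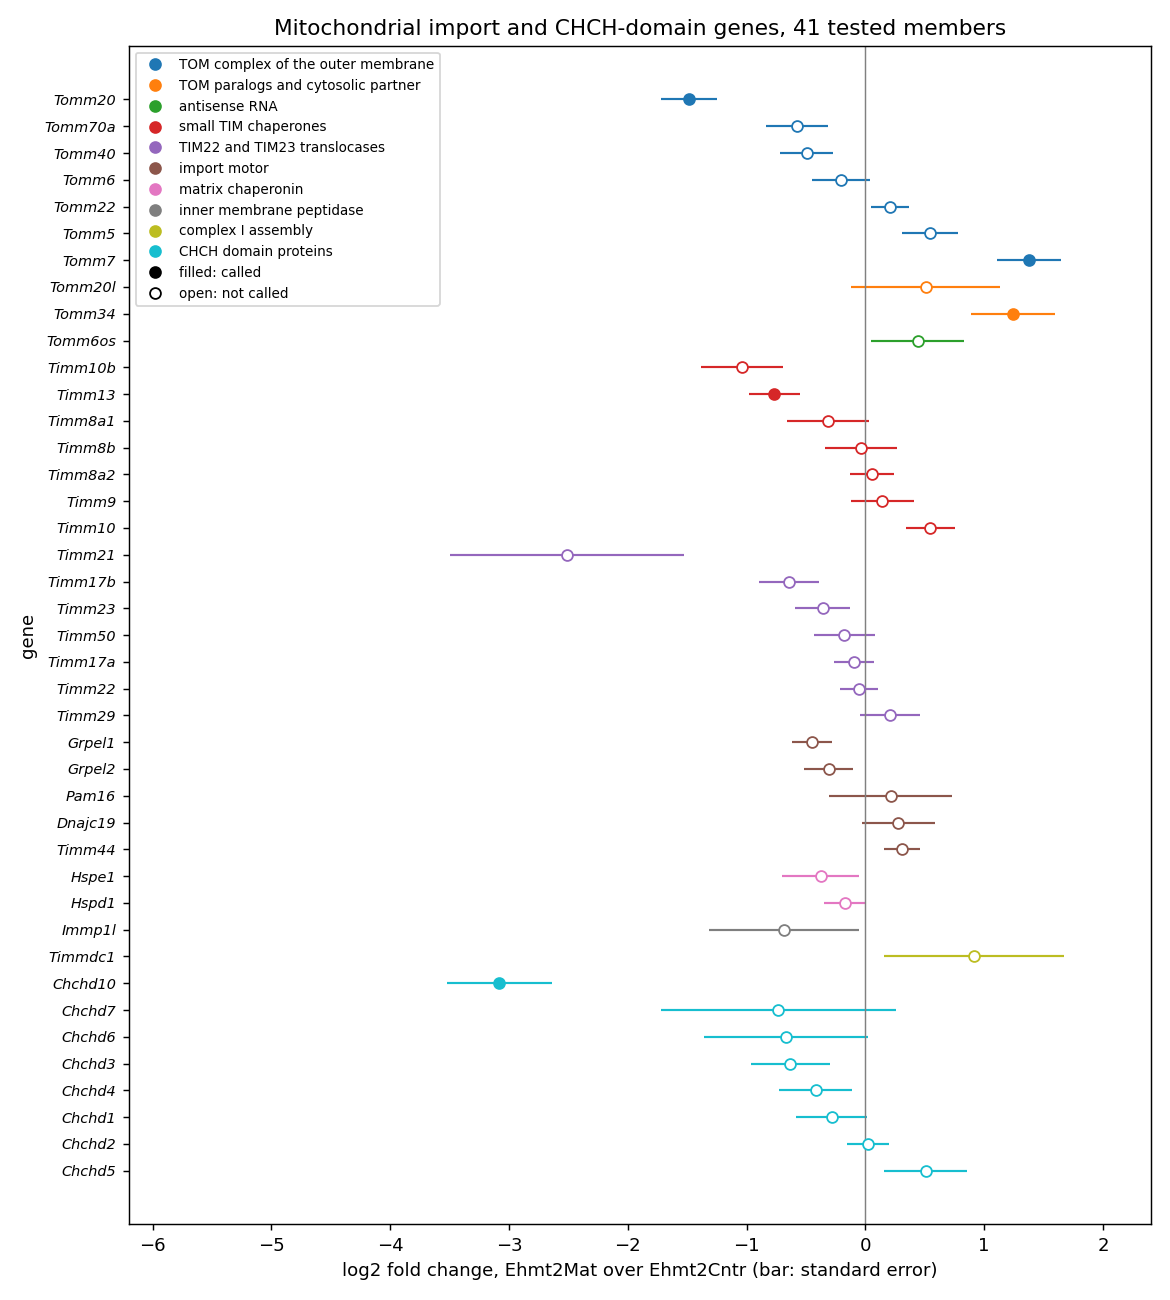
Log2 fold change of Ehmt2Mat over Ehmt2Cntr embryos (x) for the 41 tested members, grouped and coloured by role, with bars for the standard error and filled points for the 5 called members. Called values run from -3.08 for Chchd10 to 1.38 for Tomm7. Members of one role lie on both sides of 0 within the TOM complex, small TIM chaperones, TIM22 and TIM23 translocases, import motor and CHCH-domain proteins.

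The TOM complex held called members in both directions. Tomm20, the receptor that first binds presequences, fell by 1.49 on the log2 scale (SE 0.24). Its level was 121, 309 and 520 CPM (lowest, median and highest) in Ehmt2Cntr and 87.9, 120 and 229 CPM in Ehmt2Mat embryos. The groups overlapped, with 7 of 10 Ehmt2Mat embryos below the lowest control, which was control embryo 10. Tomm7, a small subunit that affects the stability of the complex, went the other way with a log2 fold change of 1.38 (SE 0.27). It stood at 15.5, 50.6 and 99.5 CPM in Ehmt2Cntr and at 48.6, 144 and 169 CPM in Ehmt2Mat embryos. In 8 of 10 Ehmt2Mat embryos Tomm7 lay above the highest control, again control embryo 10, while Ehmt2Mat embryos 2 (48.6 CPM) and 4 (95.5 CPM) lay within the control range.

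The other 5 TOM subunits were not called. The channel gene Tomm40 had a log2 fold change of -0.49 (SE 0.22) and the receptor gene Tomm70a one of -0.57 (SE 0.26), each with 6 of 10 Ehmt2Mat embryos below the lowest control. Tomm22, the central receptor and the member with the highest level per length, had 0.21 (SE 0.16). The small subunits Tomm5 and Tomm6 had 0.55 (SE 0.23) and -0.21 (SE 0.24). Of the exon bases of Tomm6, 84.2% overlapped other genes, among them its antisense RNA Tomm6os (log2 fold change 0.44, SE 0.39), and the counting did not use strand, so that reads of the pair cannot be told apart. Tomm70a spread widely among Ehmt2Mat embryos, from 143 to 696 CPM, against 306 to 688 CPM in Ehmt2Cntr.

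Tomm34, a cytosolic co-chaperone of Hsp70 and Hsp90 named for its part in import, was called higher with a log2 fold change of 1.24 (SE 0.35). Its level was 3.25, 13.5 and 37.5 CPM in Ehmt2Cntr and 28.0, 40.9 and 64.1 CPM in Ehmt2Mat embryos. Of the Ehmt2Mat embryos, 6 lay above the highest control and none below the control median. The Tomm20 paralog Tomm20l was low, with a mean of 2.38 CPM in Ehmt2Cntr and 3.39 CPM in Ehmt2Mat embryos, and was not called. Tomm40l, not tested, had a count in 2 of 9 Ehmt2Cntr and 7 of 10 Ehmt2Mat embryos, with at most 54 reads. Of its exon bases, 64.3% overlapped Nr1i3, and 56.3% of its 50-base windows occur in another gene, so these reads need not be its own. Genes with a count also averaged 13155 in Ehmt2Cntr and 14429 in Ehmt2Mat embryos.

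**Figure D3:**
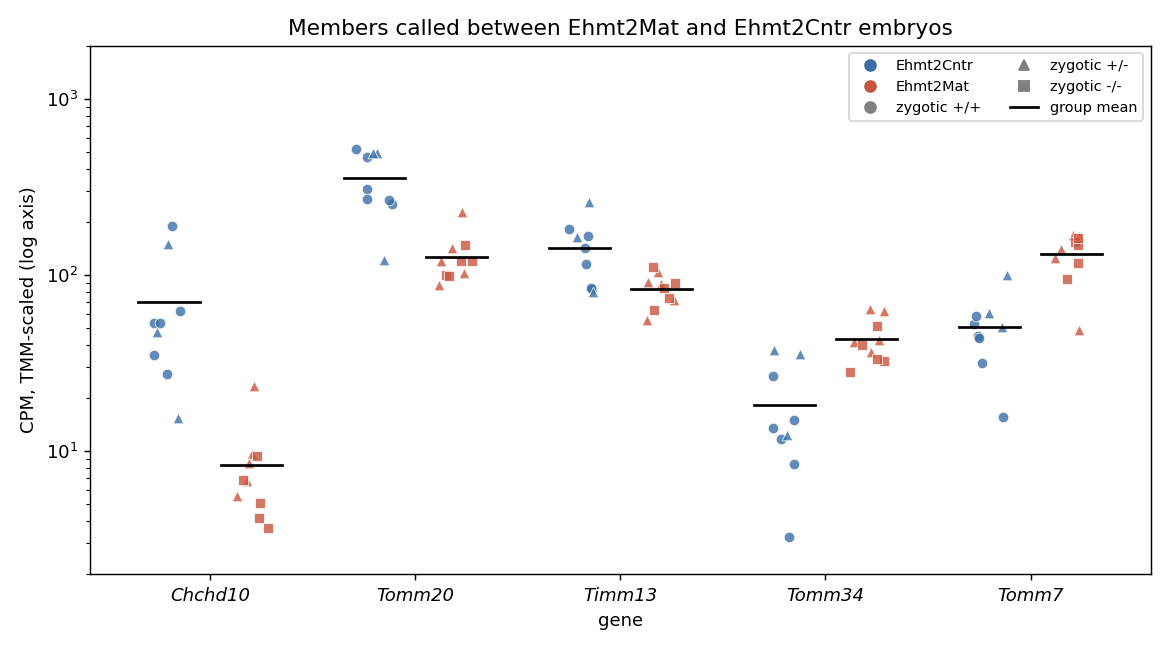
Level of the 5 called members in each embryo (CPM, log axis), Ehmt2Cntr in blue and Ehmt2Mat in red, with marker shape for the zygotic genotype and lines for the group means. The groups overlap for every gene, and control embryo 10 is the lowest control for Chchd10 (15.5 CPM), Tomm20 (121 CPM) and Timm13 (80.2 CPM) and the highest for Tomm34 (37.5 CPM) and Tomm7 (99.5 CPM).

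Among the small TIM chaperones edgeR called Timm13 alone, with a log2 fold change of -0.77 (SE 0.22). Timm13 pairs with Timm8 proteins in the intermembrane space. It stood at 80.2, 143 and 258 CPM in Ehmt2Cntr and at 55.8, 86.8 and 111 CPM in Ehmt2Mat embryos, 4 of which lay below the lowest control. The call was lost without control embryo 3 (-0.61) or control embryo 5 (-0.72). Timm8a1 and Timm8b, its partners, had log2 fold changes of -0.32 (SE 0.35) and -0.03 (SE 0.30). Timm9 and Timm10, which form the other chaperone of this kind, had 0.14 (SE 0.27) and 0.55 (SE 0.21). Timm10b, which docks that chaperone at TIM22, had -1.04 (SE 0.35) with 8 of 10 Ehmt2Mat embryos below the lowest control, and was not called by edgeR. It was called by DESeq2, with genes kept only if every embryo had 10 or more reads, and without Ehmt2Mat embryo 10. Of its exon bases, 31.3% overlapped Arfip2, Dnhd1 and Gm22504.

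None of the 7 TIM22 and TIM23 members or the 5 members of the import motor was called by edgeR, while DESeq2 called Timm21 lower. Timm17a and Timm23, core of the presequence translocase, had log2 fold changes of -0.10 (SE 0.17) and -0.36 (SE 0.23), and Timm50, its receptor, had -0.18 (SE 0.26). Timm17b had -0.64 (SE 0.25), with 4 of 10 Ehmt2Mat embryos below the lowest control, and Timm29 had 0.21 (SE 0.25). Timm22, the carrier translocase, had -0.05 (SE 0.16). Timm44, which tethers the motor, had 0.30 (SE 0.15) with 5 of 10 Ehmt2Mat embryos above the highest control. Timm21 had the lowest value of the uncalled members, -2.51, but with an SE of 0.99 and levels from 0 to 27.6 CPM in Ehmt2Cntr and from 0 to 4.50 CPM in Ehmt2Mat embryos. Grpel1, the nucleotide exchange factor of the motor, had -0.45 (SE 0.17) and was called when control embryo 10 was left out. For Timm23, 57.5% of its 50-base windows occur in other genes, and reads there could be counted for several or be missing.

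The matrix chaperonin genes Hspd1 and Hspe1, which share a bidirectional promoter and fold newly imported proteins, had log2 fold changes of -0.17 (SE 0.18) and -0.38 (SE 0.32), and neither was called. Other genes share 42.1% of the windows of Hspd1 and 22.8% of those of Hspe1. Immp1l, of the inner membrane peptidase, had -0.69 (SE 0.63) at a mean of 4.27 CPM in Ehmt2Cntr, with 33.8% of its windows shared with another gene. Timmdc1, a complex I assembly factor, had 0.91 (SE 0.76) at 3.68 CPM.

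Of the 8 CHCH-domain genes, Chchd10 was the only one called and had the largest change of all members tested. It encodes an intermembrane space protein known for mutations in motor neuron disease and myopathy. Its log2 fold change was -3.08 (SE 0.44), from 70.3 ± 58.8 CPM (SD, n = 9) in Ehmt2Cntr to 8.32 ± 5.68 CPM (SD, n = 10) in Ehmt2Mat embryos. The lowest, median and highest levels were 15.5, 53.2 and 189 CPM against 3.68, 6.84 and 23.4 CPM, on 463 to 2589 and 55 to 285 reads. In 9 of 10 Ehmt2Mat embryos Chchd10 lay below the lowest control, and Ehmt2Mat embryo 10 lay above it. Its paralog Chchd2 had a log2 fold change of 0.02 (SE 0.18), at 233 ± 55.3 CPM (SD, n = 9) and 236 ± 58.7 CPM (SD, n = 10). Chchd4, the import oxidoreductase of the disulfide relay, had -0.42 (SE 0.31), and Chchd3 and Chchd6 of the cristae junction complex had -0.63 (SE 0.33) and -0.67 (SE 0.69). Chchd1, a mitochondrial ribosome protein, had -0.28 (SE 0.30), and Chchd5 and Chchd7 had 0.51 (SE 0.35) and -0.73 (SE 0.99).

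Embryos differed in where they stood over the members as a whole. The median deviation of the 41 members from their mean over all embryos ran from -0.13 to 0.41 on the log2 scale in Ehmt2Cntr and from -0.57 to 0.24 in Ehmt2Mat embryos. Ehmt2Mat embryos 1, 2, 3 and 4 had the lowest medians of all 19 embryos (-0.28, -0.57, -0.14 and -0.20) and the other 6 Ehmt2Mat embryos lay between 0.07 and 0.24. The same 4 embryos had the lowest Tomm70a levels, 143 to 229 CPM. Their zygotic genotypes were -/-, +/-, +/- and -/-, and their mitochondrial genome shares were 14.6%, 8.03%, 8.13% and 10.5%. Their genes with a count numbered 15102, 16412, 13204 and 16021, against 12754 to 14980 in the other 6 Ehmt2Mat embryos. They carry the first 4 embryo numbers of their group. The labels name no batch or litter that goes with the numbers, and the part of these values in the results was not tested. No such median over all genes was set beside that of the members.

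**Figure D4:**
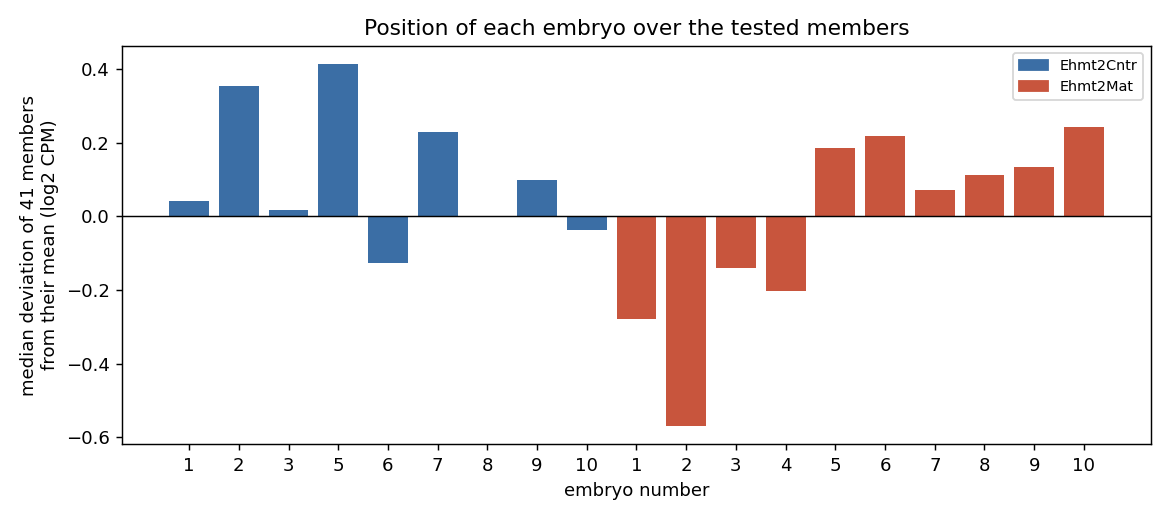
Median deviation of the 41 tested members from their mean over all embryos (y, log2 CPM) for each embryo by number (x), Ehmt2Cntr in blue and Ehmt2Mat in red. Ehmt2Mat embryo 2 lies lowest at -0.57 and control embryo 5 highest at 0.41.

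The zygotic genotype within each maternal group gave comparisons that the choice of genes did not rest on. Between -/- and +/- embryos of Ehmt2Mat mothers (5 against 5), 0 of 41 members were called by edgeR and 0 had an unadjusted p under 0.05, with 0.0% of 12195 genes called and 2.21% at an unadjusted p under 0.05. DESeq2 called 0 members and 3 genes. Member log2 fold changes ran from -1.36 (Chchd7) to 1.04 (Timmdc1). Chchd10 was at 5.84 ± 2.34 CPM in -/- and 10.8 ± 7.21 CPM in +/- embryos (SD, n = 5 each), a log2 difference of -0.88 (SE 0.59) that did not pass. The other 4 genes had -0.22 (Tomm20), 0.03 (Timm13), 0.06 (Tomm7) and -0.41 (Tomm34).

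Between +/- and +/+ embryos of Ehmt2Cntr mothers (3 against 6), 0 of 41 members were called, with 0.0% of 12646 genes called. Unadjusted p under 0.05 was reached by 3 members, 7.32% against 4.52% of all genes, namely Tomm5 (log2 fold change 0.89, SE 0.31), Chchd3 (-1.19, SE 0.48) and Tomm70a (-0.61, SE 0.25), each with an edgeR adjusted p of 0.9998. DESeq2 called 0 members and 3 genes. Tomm34 was at 28.5 ± 14.0 CPM in the 3 +/- and 13.1 ± 7.89 CPM in the 6 +/+ embryos (SD), a log2 difference of 1.14 (SE 0.64). Tomm7 was at 70.3 ± 25.8 and 41.2 ± 15.5 CPM (SD), a difference of 0.79 (SE 0.43). Neither passed. Control embryo 10, one of the 3 +/- embryos, had the highest level of both genes, and for Tomm7 it stood at 99.5 CPM against 60.9 and 50.6 CPM in the other two. Chchd10 and Tomm20 had 0.03 (SE 0.67) and 0.10 (SE 0.40).

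Lists of genes that work beside the members were described in the comparison of the maternal groups. Of all genes tested, 4.37% were called higher and 4.98% lower. Of 18 import partners, 0 were called higher and 2 lower. These were Mtx2, a metaxin of the outer membrane (58.8 ± 19.6 CPM, n = 9, and 15.3 ± 10.0 CPM, n = 10, SD; log2 fold change -1.94, SE 0.34), and Gfer, the oxidase that renews Chchd4 (-1.70, SE 0.35). Of 12 quality control genes of the matrix and inner membrane, the protease gene Yme1l1 was called higher (0.71, SE 0.18) and the protease gene Afg3l2 lower (-1.05, SE 0.32). Of 6 cristae junction (MICOS) genes matched, 0 were called. Of 18 other proteins with paired cysteine motifs, 1 was called, the cytochrome oxidase assembly gene Coa5, lower by a log2 fold change of -1.01 (SE 0.25). The median log2 fold changes of the lists were 0.17, 0.09, -0.05 and 0.25, against -0.04 over all genes tested.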

How the data were processed

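Single-embryo cDNA was amplified by a method with a 3' bias, and single-end reads of 50 bases were sequenced. The deposited files hold raw read counts per gene, which the authors made with featureCounts 1.5.0 over Ensembl release 82 exons (GRCm38/mm10), without strand, with a minimum overlap of 10 bases, and with multi-mapping and multi-overlapping reads counted, per the file headers. The submitters' processing notes name TopHat2, featureCounts and DESeq2, and the paper credits its read counts per transcript to SeqMonk. The input named in the file headers leaves the aligner uncertain. If only uniquely mapping reads were aligned, reads in shared windows would be missing from the counts and not counted for several genes. One labelled control embryo, number 4, was not analysed here, leaving 19 of 20. Symbols were matched for 34599 of 34937 gene IDs.

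The counts were filtered (filterByExpr), TMM-scaled and tested with edgeR 4.0.16 (R 4.3.3) (quasi-likelihood F, adjusted p under 0.05 after Benjamini and Hochberg over all genes) for the maternal groups and for zygotic genotypes within each. Standard errors belong to the fitted log2 fold changes. DESeq2 1.42.0, other scalings and filters, exon length correction, thinned counts and omitted embryos were alternatives. On simulated counts for the maternal comparison (11754 genes, 200 of them changed), edgeR recovered 15% of genes with a log2 change of 1 and 80% of genes with a log2 change of 3. Smaller changes can thus go uncalled. The changed genes were drawn at random from all genes tested, with the dispersion trend over all genes, so these shares are not those for the members. The median SE in the maternal comparison was 0.27 for the members and 0.42 over all genes. Windows of 50 bases shared with other genes were counted in GENCODE transcripts. The MICOS symbols Micos10 and Micos13 were not matched, as the annotation uses older names.

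Named genes were every called member, the core TOM and TIM subunits, small TIM chaperones, Chchd4, Hspd1 and Hspe1 whatever their change, and called genes of the 4 lists (at most 3 in each direction). Other members were named after their values were seen. The members and lists were chosen with earlier results of these data known. Levels are means ± SD over embryos. With no label of a mother or culture, the embryos were fitted as independent, and SEs and p-values rest on the spread between embryos. The maternal genotype belongs to the mother, so embryos that share a mother could make SEs and p-values too small. The spread between mothers was not estimated. The precision of low values is that of the counts, and the floor covers counting error only.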

Additional observations from a re-analysis of the deposited data

Results flagged for a closer look

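Of 42 sets of embryos checked (21 named members in 2 maternal groups), 3 had a highest or lowest embryo whose gap to the next, as a share of the range in log2(CPM + 1), was above Dixon's 95% limit of 0.493 for 9 or 0.466 for 10 embryos. Chance alone gives about 1 in 20 such sets. Chchd10 in Ehmt2Mat embryo 10 stood at 23.4 CPM, against 3.68 to 9.57 CPM in the other Ehmt2Mat embryos, with a gap of 0.506 of the range. Tomm20 in control embryo 10 stood at 121 CPM, against 252 to 520 CPM in the other controls (0.503). Tomm7 in Ehmt2Mat embryo 2 stood at 48.6 CPM, against 95.5 to 169 CPM in the other Ehmt2Mat embryos (0.539). Without any one of these embryos, Chchd10, Tomm20 and Tomm7 were still called. The cause of these values was not tested.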

How the results depend on the processing

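The counts of called members (3 lower, 2 higher) held under TMM or RLE scaling, no filter, thinned counts, the mitochondrial genome left out of library sizes, removal of the exon length slope and omission of control embryos 8 and 10, the last 2 chosen after seeing the data. Keeping only genes with 10 or more reads in each embryo gave 4 lower (adding Timm10b at -1.05), 2 higher and 1375 genes. DESeq2 called 5 members lower (adding Timm10b and Timm21) and 1775 genes, against 1099. Without one embryo, 2 to 4 members were called lower, 2 higher, and 884 to 1262 genes in all. The median member log2 fold change was between -0.24 and -0.11 in those fits, -0.26 without control embryos 8 and 10, and -0.049 in zygotic +/- embryos alone. With zygotic +/- embryos alone, 0 members were called lower and 0 higher, and values changed sign for Hspd1 (0.11), Hspe1 (0.062), Timm17a (0.10), Timm22 (0.14), Timm50 (0.18) and Timm9 (-0.15). That comparison has 8 embryos and the cause was not tested. Embryo numbers did not pair the samples. Same-numbered embryos had a mean correlation of 0.012 over 9 pairs (-0.156 to 0.0856). With the number as a replicate block, 693 genes were called, Timm13 was at -0.64 and no longer called, and Timm8b was at 0.068. With the block and the length slope together, Timm17a was at 0.057. When single embryos were left out, Timm8b ranged from -0.18 to 0.13, Timm17a from -0.16 to 0.022, Timm22 from -0.12 to 0.00015 and Timm8a1 from -0.43 to 0.037. Timm21 and Chchd7, listed at 0 in some embryos, had the widest standard errors of the tested members, and whether depth set this was not tested.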
